A study of Mus musculus with 24 samples.

Results

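The comparison covered here set the hippocampus of 24-month-old male (XY) mice that lack aromatase in the brain, *bArKO*, against that of Control males of the same age. It holds 6 of the 24 bulk RNA-seq libraries of the series, taken by their age, sex and genotype labels, 3 libraries a side, each from a separate mouse. The *bArKO* mice came from a cross of *Arom fl/fl* mice, which carry a floxed aromatase gene, with *Nestin-Cre* mice, both on C57BL/6J. The Controls were age-matched *Arom fl/fl* littermates, so the floxed alleles are shared by both groups and Cre is not. The Nestin promoter drives Cre in neural precursors and so reaches the neurons and macroglia that come from them, while microglia, vessels and meninges come from other precursors. Library totals were 11366328, 11364947 and 8536123 counts in *bArKO* replicates 1, 2 and 3 and 12912021, 12657471 and 10129173 counts in Control replicates 1, 2 and 3, the order kept below. Levels are in CPM, read counts normalised to library size with TMM factors, and 3 counts, the floor used here, equal 0.232 to 0.351 CPM across these libraries. A gene was called differentially expressed (DEG) when its log2 fold change in edgeR was past 0.5 in size and its p after Benjamini-Hochberg correction was under 0.05, and every fold is *bArKO* over Control.

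Aromatase, encoded by *Cyp19a1*, converts androgens to estrogens, and in the brain it is made by neurons and astrocytes. Estrogens act through the nuclear receptors encoded by *Esr1* and *Esr2* and through the membrane receptor encoded by *Gper1*, and in the hippocampus they are known for effects on dendritic spines and synaptic transmission. In males, testosterone reaching the brain is the substrate of aromatase.

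Transcripts of the deleted gene were too few to show its loss. *Cyp19a1* had 0, 0 and 2 counts in the *bArKO* libraries and 2, 1 and 1 in the Control libraries, at or under the floor in all 6, so it was not tested and no fold is given. Sex labels matched the counts. *Xist*, the RNA that silences an X chromosome in females, was at 1.09 CPM or less, and *Ddx3y*, a gene of the Y chromosome, was at 54.6, 55.8 and 55.5 CPM in *bArKO* and 53.3, 47.0 and 46.9 CPM in Control. Markers of the labelled tissue were present in every library. The dentate granule cell list summed to 1180.3, 1033 and 1297 CPM in *bArKO* and 1239, 882 and 1127 CPM in Control, and the CA1 pyramidal cell list to 748, 972 and 656 CPM and 778, 1007 and 881 CPM.

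The libraries were not alike in what else they held. In *bArKO* replicate 3, 11 of 15280 genes were more than 4 times as high as in the highest of the other 5 libraries, against 1 gene in Control replicate 1 and 0 in each of the other libraries. These 11 included *Pax7*, *Lhx1*, *Ebf3*, *Shox2* and *Klhl1*, which encode regulators or markers of neurons. *Pax7*, a transcription factor of the dorsal midbrain, was at 0, 0 and 10.4 CPM in *bArKO* and 0.0779, 0 and 0 CPM in Control. A list of 15 midbrain transcription factors, written after these values were seen and so not tested, summed to 10.3, 21.6 and 78.2 CPM in *bArKO* and 15.3, 11.8 and 16.5 CPM in Control.

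Choroid plexus and meningeal transcripts set another pair apart, with a library from each group. *Ttr*, which encodes the thyroxine carrier secreted by the choroid plexus, was at 67.0, 1994 and 133 CPM in *bArKO* and 229, 104 and 1199.96 CPM in Control. The choroid plexus list, of which *Ttr* had the most counts, summed to 375, 3292 and 446 CPM in *bArKO* and 666, 418 and 2013 CPM in Control. The list of meningeal and perivascular fibroblasts summed to 213, 434 and 187 CPM and 182, 190.5 and 539 CPM. Both lists were therefore highest in *bArKO* replicate 2 and Control replicate 3. Blood transcripts differed as well, at a sum of 249, 195 and 116 CPM in *bArKO* and 149.8, 98.2 and 146 CPM in Control. For several lists, medians without these libraries are also given below, and the part of dissection in any of them was not tested.

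**Figure D1:**
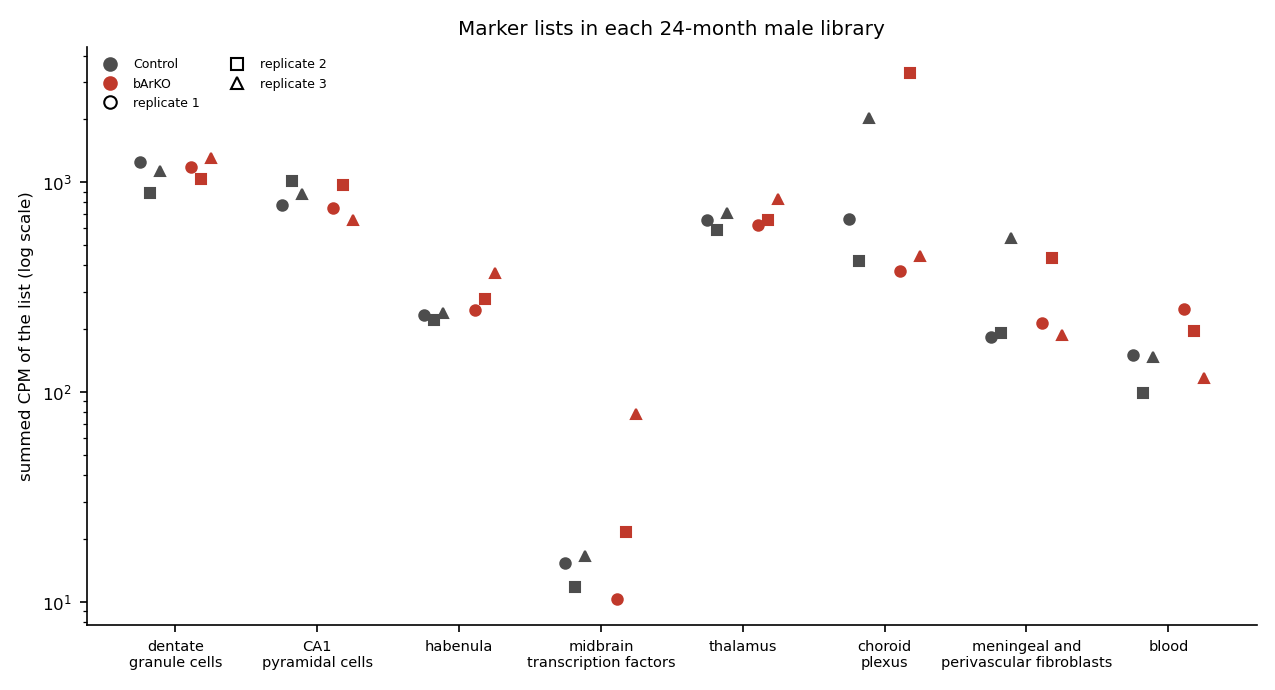
Summed CPM (log scale) of 8 marker lists in each 24-month male library, with a symbol for each replicate and a colour for each genotype. *bArKO* replicate 3 stands apart for midbrain transcription factors at 78.2 CPM, and *bArKO* replicate 2 and Control replicate 3 for choroid plexus at 3292 and 2013 CPM.

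Across 15412 genes tested, the genotypes were not told apart at the level of a single gene. edgeR found 0 DEGs (0%), with the smallest Benjamini-Hochberg adjusted p at 1.00, and 281 genes (1.82%) at an unadjusted p under 0.05. DESeq2 on the same 12 libraries also gave 0 DEGs, with 285 genes at an unadjusted p under 0.05. Of the 281 genes, 178 (1.15% of those tested) were higher in *bArKO* and 103 (0.668%) lower. Since no adjusted p fell under 0.05, every gene and list below is described by its values, and none passed the test unless another setting is named. The count at an unadjusted p under 0.05 was 499 without *bArKO* replicate 1. Of the 281 genes, 107 were under it without *bArKO* replicate 3, and 25 were under it with each library left out in turn, so a single library often decided on which side a gene fell.

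The 3 libraries of each group did not overlap at 1192 genes (7.73%), 606 (3.93%) with *bArKO* higher and 586 (3.8%) with *bArKO* lower. With random order, 3 against 3 do not overlap at a share of 0.1, more than was found here. No overlap at a gene is therefore not by itself read as a difference. The 10 higher and 10 lower genes named for a small p were required not to overlap, so for these it follows from the choice. Fold changes were small, with a median of 0.00 and quartiles at -0.07 and 0.10. Those of 759 genes were past 0.5 in size. The 95% confidence interval of a log2 fold change reached a median of 0.335 to either side, or 0.269 for genes at 10 CPM or more.

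**Figure D2:**
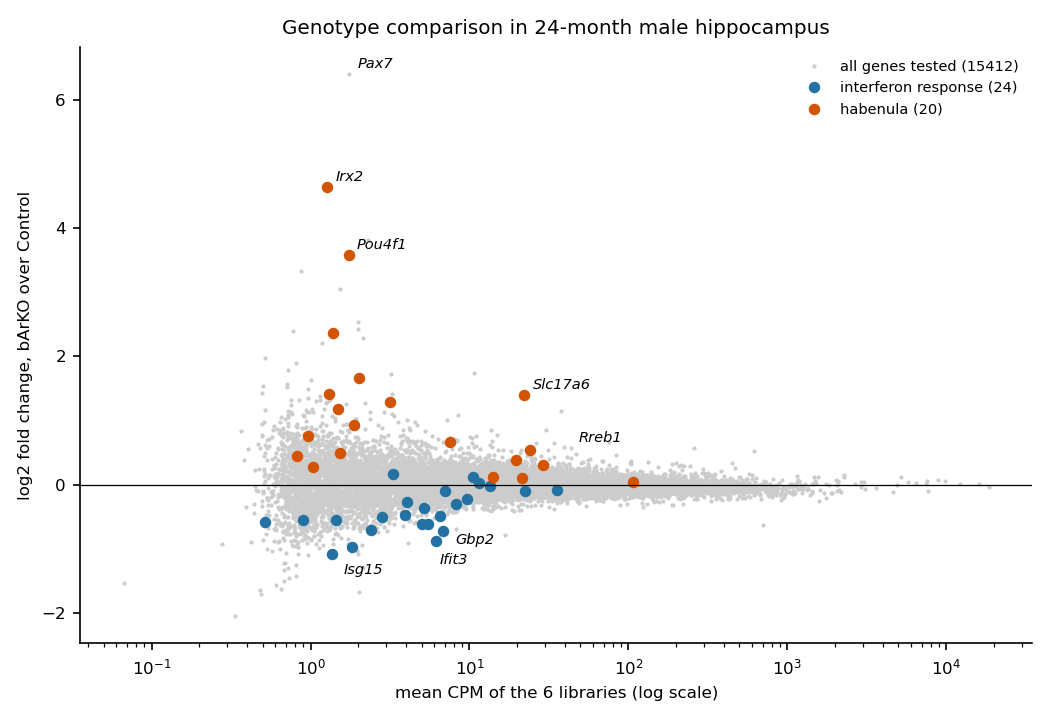
Log2 fold change of *bArKO* over Control against the mean CPM of the 6 libraries (log scale) for the 15412 genes tested, with the interferon response list in blue and the habenula list in orange. Of 24 interferon response genes, a list chosen with earlier results of these data known, 21 lie below 0.

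Genes of the interferon response were lower in *bArKO* males. Type I interferons, released on viral infection or on sensing of nucleic acids, bind a receptor whose signal acts on a shared element in the promoters of these genes. The list, chosen like the others with earlier results of these data known, holds 24 genes, all of them tested. Of these, 21 had a log2 fold change below 0, and the median of the list was -0.48 against 0.00 over all genes tested. At an unadjusted p under 0.05, 7 were lower and 0 higher (0.668% and 1.15% of all genes tested). With no overlap between the groups, 8 were lower (3.8% of all genes tested). Summed over the list, levels were 155, 179 and 152 CPM in *bArKO* and 192, 188 and 192 CPM in Control, with every *bArKO* library below every Control library. *Ifi27*, the member with the most counts, overlapped between the groups, at 33.0, 41.7 and 28.2 CPM in *bArKO* and 36.4, 35.6 and 37.7 CPM in Control.

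*Ifit3*, which encodes an antiviral protein of the IFIT family, had the smallest p of all genes tested. It was at 3.66, 4.90 and 4.49 CPM in *bArKO* and 8.10, 8.07 and 7.72 CPM in Control. The Control values lay close together and the highest *bArKO* value was well below them. The log2 fold change was -0.87 with a 95% confidence interval of -1.26 to -0.48, from 41, 56 and 39 counts against 104, 101 and 78, and the adjusted p of edgeR after Benjamini-Hochberg correction was 1.00. *Isg15*, a ubiquitin-like protein that is conjugated to other proteins after interferon, was at 0.892, 1.57 and 1.27 CPM in *bArKO* and 2.73, 2.96 and 1.58 CPM in Control. The highest *bArKO* value reached almost to the lowest Control value, and the log2 fold change was -0.97 (-1.64 to -0.29). *Gbp2*, a guanylate-binding GTPase of cell-autonomous defence, was at 5.26, 5.69 and 4.38 CPM in *bArKO* and 6.93, 7.91 and 10.8 CPM in Control. Its groups did not overlap either, with a log2 fold change of -0.73 (-1.19 to -0.26).

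The other 4 of the 7 genes were *Oasl2*, *Rtp4*, *Ifi27l2a* and *Gbp3*, named after their values were seen. *Oasl2*, of the oligoadenylate synthetase family, was at 3.83, 4.46 and 4.84 CPM in *bArKO* and 7.55, 6.23 and 6.13 CPM in Control, with no overlap. Log2 fold changes of these 4 were -0.61 for *Oasl2*, -0.70 for *Rtp4*, -1.07 for *Ifi27l2a* and -0.48 for *Gbp3*, which was -0.22 without Control replicate 2. With each library left out in turn, *Ifit3*, *Isg15* and *Gbp2* stayed at an unadjusted p under 0.05 and these 4 did not. *Rtp4* and *Gbp3* overlapped between the groups. The list was therefore not lower by the same amount throughout.

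Without the libraries that stood apart the median of the list stayed below 0. Without *bArKO* replicate 1, which was not among them, it was -0.38 and 4 genes were lower at an unadjusted p under 0.05. Over all genes tested, more were at that level in this setting than with all libraries, as given above. Without *bArKO* replicate 3 the median was -0.43, with 5 genes lower at an unadjusted p under 0.05 (0.481% of all genes tested then) and 0 higher (0.842%). Without *bArKO* replicate 2 and Control replicate 3 it was -0.56, with 6 lower (0.742%) and 0 higher (1.3%). For the 20 members with at least 10 counts in every 24-month library, the median moved more. It was -0.33 with all libraries, -0.21 without *bArKO* replicate 3 and -0.51 without *bArKO* replicate 2 and Control replicate 3. Interferon response genes are made by microglia, endothelium and astrocytes among other cells, and in bulk tissue fewer cells of a type and less RNA per cell cannot be told apart. The microglia list summed to 1021, 942 and 873 CPM in *bArKO* and 1046, 1028 and 896 CPM in Control, with overlap. The part of microglial number in the interferon values was not tested.

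Promoter sequences show what several of these genes share. The motif searched was GAAANNGAAA, the core of the element that interferon-stimulated factors bind, on either strand, so that it reads TTTCNNTTTC on the other strand. Sequences were from RefSeq, table build GRCm38.p6, and those printed match GRCm39 exactly at the coordinates given. In the 250 bases before the start of a transcript in that table, the motif was in 978 of 32851 promoters (2.98%), or 936 of 27025 genes (3.46%). Of the 24 interferon response genes 18 were in the table and 10 had the motif. Among the 7 genes lower at an unadjusted p under 0.05, 5 were in the table and 4 had it, *Ifit3*, *Isg15*, *Gbp2* and *Gbp3*. *Ifit3* and *Isg15* are printed as the genes with the smallest p and with the most matches among these, over the 210 bases that end 41 bases before the start. *Ifit3* is on the plus strand at chr19:34560679-34560888 and *Isg15* on the minus strand at chr4:156285316-156285525, both written 5′ to 3′ with the motif in capitals.
Ifit3: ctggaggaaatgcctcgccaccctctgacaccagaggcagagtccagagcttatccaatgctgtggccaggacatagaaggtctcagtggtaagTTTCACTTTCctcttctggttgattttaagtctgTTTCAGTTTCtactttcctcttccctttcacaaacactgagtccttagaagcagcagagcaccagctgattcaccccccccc
Isg15: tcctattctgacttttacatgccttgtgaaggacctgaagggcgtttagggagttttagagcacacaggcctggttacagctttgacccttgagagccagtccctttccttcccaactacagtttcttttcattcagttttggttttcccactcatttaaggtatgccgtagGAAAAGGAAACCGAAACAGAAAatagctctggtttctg
*Ifit3* holds 2 separate matches, 156 and 122 bases before the start, both as the complement. *Isg15* holds 3 matches that overlap, 78, 72 and 66 bases before the start, and the capitals run through all 3. Distances are from the start in the RefSeq table, which lies 30 bases inside the annotated gene for *Ifit3* and 28 for *Isg15*. From the annotated start, the matches of *Ifit3* were 126 and 92 bases before it and those of *Isg15* 50, 44 and 38, while those of *Gbp2* and *Gbp3* lay inside the annotated gene. A match describes letters in the window and is not evidence that a factor binds there.

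Old females did not show lower interferon response genes. In 24-month females the list had a median log2 fold change of 0.23, with 3 of 24 genes below 0. The interaction of sex with genotype had 0 genes past an adjusted p of 0.05 in edgeR with Benjamini-Hochberg correction (0%), and DESeq2 also gave 0. At an unadjusted p under 0.05 the interaction took 246 genes (1.6%), 129 of them (0.837%) with the lower fold in males. Of the 24 interferon response genes 10 were among these, all 10 with the lower fold in males. *Ifit3* was at 8.24, 11.3 and 7.63 CPM in female *bArKO* and 7.93, 7.99 and 8.59 CPM in female Control, a log2 fold change of 0.15. The 3 *bArKO* males were thus below the other 9 libraries of this age, and the interaction was -1.02. *Isg15* was at 2.71, 2.68 and 2.08 CPM in female *bArKO* and 1.92, 1.35 and 1.79 CPM in female Control. In females every *bArKO* value was above every Control value, the reverse of males, where the groups almost met. The interaction was -1.52. In 6-month males the median of the list was -0.24, or -0.12 without Control replicate 1 and -0.10 without Control replicate 3 of that age, with 19 genes below 0 from all 6 libraries, and 1 of 24 genes was at an unadjusted p under 0.05 for the interaction of age with genotype.

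**Figure D3:**
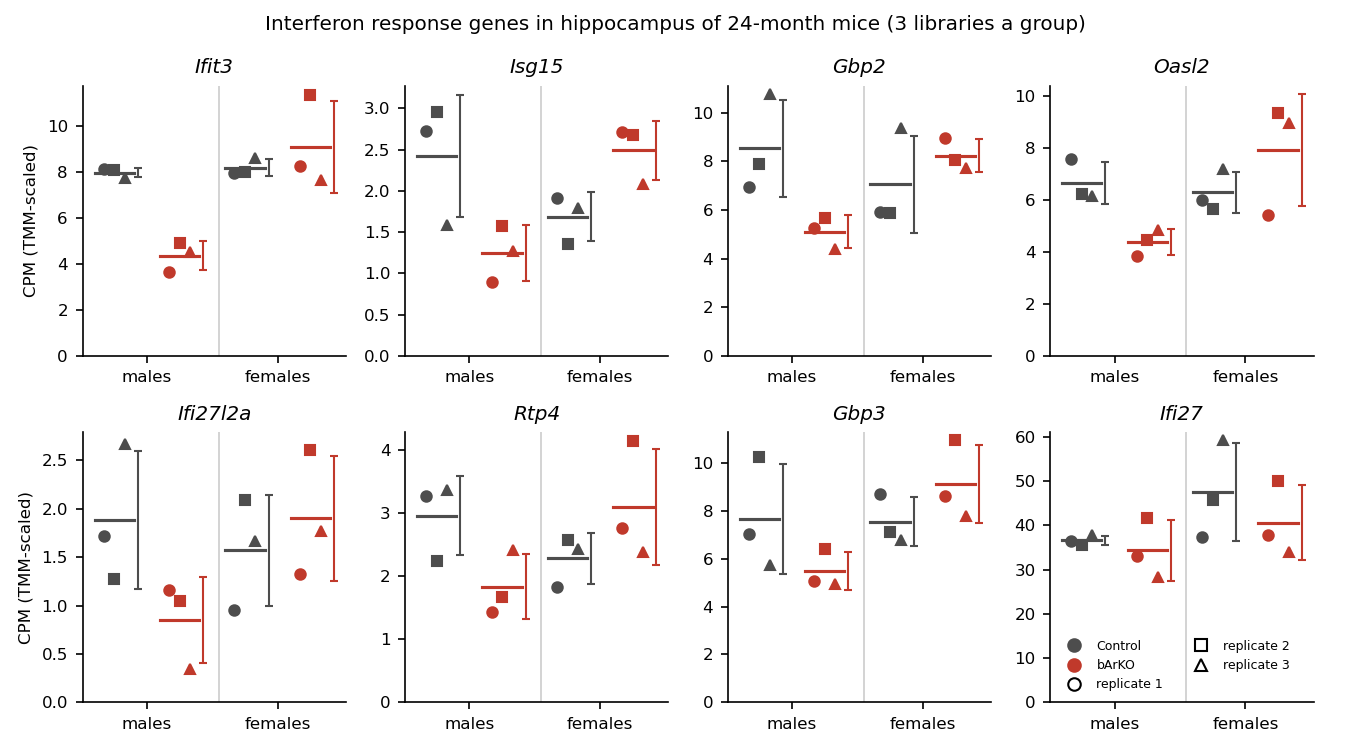
CPM of 8 interferon response genes in 24-month males and females, 3 libraries a group, with symbols for replicates, lines for means and bars for 1 SD. In males *Ifit3* is at 3.66 to 4.90 CPM in *bArKO* and 7.72 to 8.10 CPM in Control, while the female groups overlap.

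Other immune lists leaned the same way by less, and the lean was smaller without *bArKO* replicate 3. Antigen presentation had 15 of 19 genes below 0 and a median of -0.20, which was -0.02 without that library and 0.00 without Control replicate 3. *H2-Q4*, a nonclassical class I gene, went the other way, at 4.99, 4.46 and 4.03 CPM in *bArKO* and 2.26, 3.19 and 3.26 CPM in Control (log2 fold change 0.64). Its groups did not overlap, though class I genes are similar in sequence and reads can be hard to assign among them. *Tapbp*, which loads peptides onto class I molecules, was at 22.6 to 24.5 CPM in *bArKO* and 26.5 to 28.0 CPM in Control, also with no overlap. Complement had 11 of 15 genes below 0, with a median of -0.12 and of -0.04 without *bArKO* replicate 3 and 0.00 without Control replicate 1. *C5ar1*, the receptor of the C5a fragment, had the smallest p in that list and overlapped between the groups, at 0.268, 0.875 and 1.38 CPM in *bArKO* and 1.87, 1.68 and 1.09 CPM in Control.

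Steroid genes were near 0. Of 16 steroid synthesis genes tested 9 were above 0, with a median of 0.01 and 0 at an unadjusted p under 0.05. *Hsd3b1*, *Hsd17b3* and *Sult1e1* of this list had 0 counts in these libraries. *Srd5a1*, which reduces testosterone to dihydrotestosterone, was at 9.81, 8.57 and 9.33 CPM in *bArKO* and 8.10, 6.47 and 8.90 CPM in Control, with overlap. Among 17 steroid receptors and coregulators 8 were above 0, and 0 were at an unadjusted p under 0.05. *Esr1* was at 1.61, 2.36 and 2.53 CPM in *bArKO* and 2.57, 3.35 and 1.88 CPM in Control (log2 fold change -0.28, SE 0.28). That fold was -0.06 without Control replicate 2, -0.10 without *bArKO* replicate 1 and -0.46 without Control replicate 3. *Gper1* was at 3.21, 4.2 and 3.46 CPM and 2.34, 3.27 and 2.87 CPM (0.36, SE 0.25, or 0.23 without Control replicate 1 and 0.24 without *bArKO* replicate 2). Both receptors overlapped between the groups, and *Esr2*, with 1, 3 and 2 counts in *bArKO* and 1, 0 and 1 in Control, was at or under the floor.

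Genes known to respond to estrogen did not move together. Of 23 tested 12 were above 0, the median was 0.02, and 1 was lower at an unadjusted p under 0.05. That gene was *Myc*, a growth-promoting transcription factor, at 4.82, 4.2 and 4.72 CPM in *bArKO* and 6.39, 5.83 and 5.44 CPM in Control. Every *bArKO* value was below every Control value (log2 fold change -0.37), but its p was above 0.05 when any library other than Control replicate 3 was left out. *Igfbp5*, which binds insulin-like growth factors, was at 308, 312 and 336 CPM in *bArKO* and 286, 232 and 292 CPM in Control, with *bArKO* higher and no overlap (0.24, or 0.14 without Control replicate 2). *Bcl2*, which blocks apoptosis, was at 17.1 to 24.3 CPM and 14.2 to 17.3 CPM, so that the groups met (0.34, or 0.18 without *bArKO* replicate 3). *Ptgds*, prostaglandin D synthase and the member with the most counts, followed the choroid plexus and meningeal transcripts, highest at 1055 CPM in *bArKO* replicate 2 and 1999.86 CPM in Control replicate 3. Its log2 fold change was -0.62 and turned to 0.12 without these libraries.

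Synaptic lists stayed close to 0, with a lean to lower values for the postsynaptic side. Postsynaptic scaffolds had 26 of 31 genes below 0 and a median of -0.10, or -0.04 without *bArKO* replicate 3. *Camk2a*, a kinase of the postsynaptic density and the member with the most counts, was at 8280.4, 7347 and 6512 CPM in *bArKO* and 8215, 7784 and 7781 CPM in Control, lowest in *bArKO* replicate 3. *Homer3*, which ties metabotropic glutamate receptors to calcium stores, was at 41.7, 33.6 and 35.8 CPM and 49.3, 42.3 and 43.9 CPM, with no overlap (log2 fold change -0.29). Glutamate receptors had 13 of 26 genes above 0 and a median of 0.00. GABA receptors had 11 of 17 above 0 and a median of 0.03. *Gabra5*, a subunit of extrasynaptic GABA-A receptors, was the GABA receptor gene at an unadjusted p under 0.05, at 171 to 214 CPM in *bArKO* and 206 to 244 CPM in Control with overlap (-0.22). Without *bArKO* replicate 3 its fold was -0.14. Its p was above 0.05 without that library, and also without *bArKO* replicate 2, Control replicate 1 or Control replicate 2. Presynaptic release genes had 19 of 30 below 0 and a median of -0.04. Their highest fold was that of *Slc17a6*, a vesicular glutamate transporter of subcortical neurons described with the habenula below. *Shisa9*, an auxiliary subunit of AMPA receptors, and *Lrrtm3*, a postsynaptic adhesion protein, are on none of the lists and were among the 10 genes higher with the smallest p. *Shisa9* was at 51.0, 49.8 and 63.9 CPM in *bArKO* and 43.4, 34.0 and 40.9 CPM in Control (0.48), and *Lrrtm3* was at 14.6, 19.4 and 19.7 CPM and 10.4, 13.8 and 12.6 CPM (0.55). Both were higher in each *bArKO* library than in any Control library, which the rule for naming them required.

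Neuropeptide genes had 12 of 21 above 0 and a median of 0.02. The 3 at an unadjusted p under 0.05, *Tac2*, *Adcyap1* and *Tac1*, were higher, as were 1.15% of all genes tested. Without *bArKO* replicate 3 the count was 1, and without *bArKO* replicate 2 the p of *Tac2* was above 0.05. *Tac2*, the neurokinin B precursor, was at 2.05, 6.91 and 4.61 CPM in *bArKO* and 1.48, 2.16 and 1.88 CPM in Control. *Adcyap1*, the PACAP precursor, was at 2.68, 6.12 and 7.6 CPM and 3.19, 2.08 and 2.77 CPM. *Tac1*, the substance P precursor, was at 7.49, 7.44 and 12.9 CPM and 4.05, 8.07 and 5.24 CPM. In each of these 3 genes *bArKO* replicate 3 or 2 was highest and *bArKO* replicate 1 overlapped the Controls. *Sncg*, gamma-synuclein, is on none of the lists and was at 6.06, 7.61 and 8.07 CPM in *bArKO* and 4.91, 2.96 and 5.05 CPM in Control, with no overlap (log2 fold change 0.75).

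Markers of the principal neurons split by field, within the range of the libraries. Dentate granule cell genes had 14 of 15 above 0 and a median of 0.10, and mossy cell genes 7 of 9 above 0 and a median of 0.23. Pyramidal cell genes were on the other side of 0, in 10 of 11 genes for CA1, 9 of 10 for CA2 and 12 of 15 for CA3, with medians of -0.14, -0.08 and -0.14. With all 6 libraries no gene of these 5 lists was at an unadjusted p under 0.05. Leaving out single libraries, the medians ranged from -0.03 to 0.20 for granule cells, 0.10 to 0.37 for mossy cells, -0.36 to -0.05 for CA1, -0.14 to -0.06 for CA2 and -0.25 to -0.06 for CA3. Without *bArKO* replicate 2 and Control replicate 3 they were 0.20 for granule cells, 0.20 for mossy cells, -0.34 for CA1, -0.14 for CA2 and -0.12 for CA3, and 3 CA1 genes, 1 CA2 gene and 1 CA3 gene were then lower at an unadjusted p under 0.05. *Rgs14*, a regulator of G protein signalling that marks CA2, was at 140.1, 116 and 97.8 CPM in *bArKO* and 143, 157 and 136 CPM in Control, with *bArKO* replicate 1 among the Controls. *Fibcd1*, a marker of CA1, was at 130.2, 162 and 116 CPM and 151, 184 and 154 CPM, with overlap. *Kcnh5*, a potassium channel gene of the mossy cell list, was at 5.62, 7.35 and 6.68 CPM and 4.28, 4.79 and 5.34 CPM, with no overlap. The summed lists overlapped between the groups. Their SD in each group exceeded the difference of the means for granule cells, mossy cells and CA1, and for CA2 and CA3 it did so in *bArKO* alone.

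Interneuron genes had 13 of 22 below 0 and a median of -0.07, with 1 gene higher, *Tac1*, and 1 lower at an unadjusted p under 0.05. The lower gene was *Htr3a*, the subunit of the serotonin-gated ion channel that marks a class of interneurons. It was at 6.78, 7.09 and 5.07 CPM in *bArKO* and 11.3, 9.66 and 9.69 CPM in Control. The groups were well apart, with a log2 fold change of -0.69 (95% confidence interval -1.12 to -0.25), or -0.56 without *bArKO* replicate 3. In 6-month males the fold of *Htr3a* was 0.17, and the interaction with age was -0.86. *Cnr1*, the cannabinoid receptor of basket cells, was at 158, 162 and 134 CPM and 188, 209.97 and 145 CPM, with overlap. Adult neurogenesis genes had 8 of 13 above 0 and a median of 0.04. *St8sia2*, which is not on that list and adds polysialic acid to NCAM in immature neurons, was at 4.37, 5.95 and 5.99 CPM in *bArKO* and 3.35, 3.27 and 3.56 CPM in Control, with no overlap (0.68).

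Astrocyte genes were slightly higher across the list. Of 26 tested 24 were above 0, the median was 0.09 and 6 were higher with no overlap (3.93% of all genes tested). The median was 0.08 to 0.15 with each library left out in turn. Summed levels were 18643, 18116 and 17324 CPM in *bArKO* and 16601, 17073 and 17641 CPM in Control. They overlapped through *bArKO* replicate 3 and Control replicate 3. *Slc39a12*, a zinc transporter, was the gene at an unadjusted p under 0.05, at 69.6, 78.0 and 90.0 CPM in *bArKO* and 65.5, 67.1 and 67.4 CPM in Control (log2 fold change 0.25). Without *bArKO* replicate 3 its fold was 0.14. Its p was above 0.05 without that library, and also without Control replicate 1. *Aqp4*, the water channel of astrocyte endfeet, was at 274, 248 and 283 CPM and 232, 223 and 202 CPM (0.29). Neither gene overlapped between the groups. Reactive astrocyte genes had 14 of 18 below 0 and a median of -0.08, which was 0.05 without *bArKO* replicate 3. *Gfap*, the intermediate filament protein that increases in reactive astrocytes, was at 1124, 958 and 753 CPM and 974, 882 and 843 CPM, with the *bArKO* libraries on both sides of the Controls. *Cxcl10*, a chemokine induced by interferon, was the gene of that list at an unadjusted p under 0.05, at 0.624, 0.350 and 0.461 CPM and 0.857, 1.68 and 0.890 CPM. All 6 values were low, near the floor in places, and the groups did not overlap (-1.24).

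Microglia genes had 15 of 19 below 0 and a median of -0.05, which was 0.01 without *bArKO* replicate 3. *Siglech*, a microglial lectin, was at 24.3, 21.9 and 20.05 CPM in *bArKO* and 27.3, 28.0 and 22.7 CPM in Control, with overlap. Activated microglia genes had 12 of 18 above 0 and a median of 0.05. *Lgals3*, galectin-3, was at 2.59, 2.89 and 2.19 CPM in *bArKO* and 1.95, 0.799 and 0.989 CPM in Control, with no overlap (log2 fold change 1.02). *Cd52* of the same list was at 1.43, 2.71 and 1.38 CPM and 2.73, 2.96 and 2.47 CPM, with *bArKO* replicate 2 among the Controls (-0.55, or -0.95 without it). Oligodendrocyte and myelin genes had 24 of 32 above 0 and a median of 0.05, and precursors 8 of 15 above 0 and a median of 0.03. Without *bArKO* replicate 2 and Control replicate 3 these medians were -0.04 and -0.06, and that of activated microglia was -0.02. The median of oligodendrocytes and myelin was 0.21 without Control replicate 1 and -0.04 without Control replicate 3. *Bcas1*, a marker of myelinating oligodendrocytes, was at 299 to 343 CPM in *bArKO* and 244 to 303 CPM in Control.

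Matrix and vessel lists had medians slightly above 0. Collagens had 18 of 31 genes above 0 and a median of 0.08, matrix glycoproteins and proteoglycans 35 of 53 and 0.05, and matrix remodelling enzymes 26 of 33 and 0.14. With all 6 libraries no gene of these 3 lists was at an unadjusted p under 0.05. The median of matrix glycoproteins and proteoglycans was 0.13 without *bArKO* replicate 3, with 2 genes then higher at an unadjusted p under 0.05. Without Control replicate 3 the higher genes numbered 7 of 31 collagens, 4 of 53 glycoproteins and proteoglycans and 1 of 33 enzymes. Without *bArKO* replicate 2 the lower genes numbered 1, 2 and 1, with 1 glycoprotein or proteoglycan gene higher. The share over all genes is not given for these settings, so the counts are not read as a difference between the groups. Leaving out single libraries, the medians ranged from -0.25 to 0.34 for collagens, -0.18 to 0.27 for matrix glycoproteins and proteoglycans and 0.05 to 0.21 for remodelling enzymes. *Sparcl1*, a synapse-promoting astrocyte protein, was at 2324, 2259.9 and 2612 CPM in *bArKO* and 2122, 2145 and 2202 CPM in Control, with no overlap. Its relative *Sparc* was at 438, 408 and 676 CPM and 431, 409 and 436 CPM, high in *bArKO* replicate 3 and at a log2 fold change of -0.01 without it. Perineuronal net genes had 7 of 13 above 0 and a median of 0.04. *Has3*, a hyaluronan synthase, was at 4.64, 4.81 and 4.15 CPM and 2.96, 2.88 and 2.87 CPM, with no overlap (0.64).

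*Ccn2*, *Col1a1*, *Dcn* and *Ogn*, matrix-related genes whose transcripts are not confined to fibroblasts, followed the libraries with meningeal transcripts. *Ccn2* was at 6.33, 28.5 and 3.11 CPM in *bArKO* and 3.74, 4.39 and 18.2 CPM in Control. *Col1a1* was at 4.99, 15.9 and 7.03 CPM and 3.19, 5.99 and 17.9 CPM. *Dcn* was at 12.6, 33.9 and 9.91 CPM and 11.4, 11.8 and 30.9 CPM, and *Ogn* at 8.03, 18.7 and 5.99 CPM and 7.79, 7.35 and 26.2 CPM. In each of the 4 genes *bArKO* replicate 2 and Control replicate 3 were the high libraries. Fold changes of all 4 turned with a left-out library, and their standard errors were 0.45 to 0.66. Meningeal and perivascular fibroblast genes had 14 of 21 below 0, with a median of -0.20 that was 0.06 without *bArKO* replicate 3 and 0.12 without the pair. Without Control replicate 3 alone the median was 0.87, with 6 genes higher at an unadjusted p under 0.05. Without *bArKO* replicate 2 alone it was -0.84, with 2 genes lower. Shares over all genes are again not given for these settings, and the counts are not read as a difference. *Slc47a1*, a transporter of that list, was at 0.178, 2.71 and 0.691 CPM and 0.701, 2.64 and 5.94 CPM, with overlap.

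Signalling by TGF-beta and Wnt had 25 of 40 genes above 0 and a median of 0.05. *Dkk3*, of the dickkopf family, was lower at an unadjusted p under 0.05 with overlap, at 343 to 436 CPM in *bArKO* and 420.2 to 508 CPM in Control. Its p was above 0.05 without *bArKO* replicate 1, *bArKO* replicate 3 or Control replicate 2. *Tgfb3*, a TGF-beta ligand, was at 10.8, 13.3 and 10.9 CPM and 9.11, 8.71 and 10.7 CPM, higher with no overlap by a narrow margin (log2 fold change 0.30, or 0.20 without *bArKO* replicate 2). Endothelial genes had 18 of 22 above 0 and a median of 0.06, and mural cell genes 10 of 16 and 0.04. Border macrophage genes had 4 of 7 above 0 and a median of 0.01, or 0.20 without *bArKO* replicate 3. Without *bArKO* replicate 2 the medians of mural cells and border macrophages were -0.14 and -0.50. Without Control replicate 3 they were 0.13 and 0.45. *Notch3*, the receptor of vascular smooth muscle and pericytes, was at 17.5, 18.02 and 18.4 CPM and 12.9, 14.3 and 16.3 CPM (0.31). *Ndufa4l2*, a mitochondrial protein used as a pericyte marker, was at 2.5, 1.84 and 1.61 CPM and 3.74, 3.03 and 3.17 CPM (-0.73). These mural cell genes differed in opposite directions, each without overlap.

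Hemoglobin genes were higher in *bArKO* replicates 1 and 2. The blood list had 8 of 9 genes above 0, a median of 0.52 and 3 genes higher at an unadjusted p under 0.05 (1.15% of all genes tested). Without *bArKO* replicate 3 the median was 0.83 and 5 were higher, and without *bArKO* replicate 2 and Control replicate 3 it was 0.40 and 1 was higher. Without *bArKO* replicate 1 the median was 0.29, and 0 were higher without *bArKO* replicate 1 or without Control replicate 2. *Hbb-bs* was at 132, 98.2 and 47.6 CPM in *bArKO* and 67.7, 40.01 and 68.8 CPM in Control, so that *bArKO* replicate 3 was among the Controls. *Hba-a1* was at 25.2, 19.3 and 11.6 CPM and 13.9, 8.39 and 10.8 CPM, and *Hbb-bt* at 24.4, 19.1 and 9.22 CPM and 10.4, 6.39 and 12.8 CPM, again with *bArKO* replicates 1 and 2 the highest. In old females the list had a median of -0.57, and 4 of 9 genes were at an unadjusted p under 0.05 for the interaction with sex. Blood left in the vessels cannot be told apart from transcripts of brain cells in these libraries.

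Habenula genes with at least 10 counts in every 24-month library had folds above 0. The habenula is a diencephalic nucleus that lies beside the dorsal hippocampus. Its list holds 20 genes, several of them with few counts in Control, such as *Irx2* and *Pou4f1*, and for these a fold above 0 can follow from the filter on low counts. The median of 0.71 over the 20 is therefore not used here. At least 10 counts in every 24-month library were found for 9 of the genes. These 9 were above 0, with a median of 0.39. At an unadjusted p under 0.05, 3 were higher (1.15% of all genes tested), and 1 was higher with no overlap (3.93%). Without *bArKO* replicate 3, 8 of the 9 were above 0, the median was 0.26 and 1 was higher, and without *bArKO* replicate 2 and Control replicate 3 the median was 0.56 with 2 higher. In 24-month females the 9 genes had a median of 0.20, with 1 below 0 and 0 at an unadjusted p under 0.05 for the interaction with sex. Summed over all 20 genes, levels were 246, 276 and 367 CPM in *bArKO* and 232, 219.7 and 236 CPM in Control. Every *bArKO* library was above every Control library, but the sum takes in genes such as *Irx2* and *Pou4f1*. It is therefore not read as a difference between the groups. *Pcdh10*, the member with the most counts, was at 103 to 114 CPM and 102 to 111 CPM, and it is made in the hippocampus as well.

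*Irx2*, a homeobox transcription factor, was at 0.803, 1.92 and 4.61 CPM in *bArKO* and 0.0779, 0 and 0.198 CPM in Control. These were 9, 22 and 40 counts against 1, 0 and 2, and since all 3 Control values were under the floor no fold is given. *Pou4f1*, the factor that sets medial habenula identity, was at 0.268, 3.06 and 6.34 CPM and 0.389, 0.160 and 0.198 CPM, with *bArKO* replicate 1 among the Controls. *Chrna3*, a nicotinic receptor subunit of the medial habenula that the pineal list also holds, was at 1.96, 3.32 and 3.92 CPM and 0.935, 1.20 and 0.692 CPM, with no overlap (1.66). *Slc17a6* was at 5.71, 23.7 and 67.2 CPM and 11.4, 7.75 and 17.1 CPM. Its log2 fold change of 1.40 was 0.29 without *bArKO* replicate 3, and *bArKO* replicate 1 was the lowest of the 6. *Klhl1*, an actin-binding protein of neurons that is in none of the lists, was at 0.713, 1.66 and 7.72 CPM and 0.701, 0.479 and 0.594 CPM (2.43, or 0.99 without *bArKO* replicate 3). Replicate 1 was the lowest and replicate 3 the highest *bArKO* library in each of these 5 genes, of which *Klhl1* is not on the habenula list. *Tac2*, which is on the list and is described with the neuropeptides, was highest in *bArKO* replicate 2.

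Lists of other neighbouring tissues had medians that moved with the libraries left out. Thalamus genes had 14 of 21 above 0 and a median of 0.16, or 0.07 without *bArKO* replicate 3 and 0.30 without *bArKO* replicate 2 and Control replicate 3. The thalamus gene at an unadjusted p under 0.05, with the highest fold of that list, was *Slc17a6*, which the habenula and presynaptic lists also hold. *Patj* of that list was at 6.24, 5.95 and 16.1 CPM in *bArKO* and 4.59, 3.91 and 8.51 CPM in Control, and *Tcf7l2*, a transcription factor of thalamic neurons, at 5.89, 8.57 and 14.98 CPM and 5.30, 3.59 and 9.99 CPM. Both were highest in *bArKO* replicate 3 and both overlapped. Neocortex and subiculum genes had 14 of 19 above 0 and a median of 0.17, or 0.04 without *bArKO* replicate 2 and 0.11 without Control replicate 2. *Foxp2*, a factor of deep-layer cortical, striatal and thalamic neurons, was higher at an unadjusted p under 0.05 with overlap, at 1.78, 2.54 and 9.91 CPM and 1.09, 0.719 and 3.56 CPM. Its p was above 0.05 without *bArKO* replicate 3, with a fold of 0.32, and without Control replicate 1 or 2. Striatum genes had 7 of 10 above 0 and a median of 0.14, or 0.05 without *bArKO* replicate 3 and 0.23 without the pair of *bArKO* replicate 2 and Control replicate 3. Pineal genes had 5 of 6 above 0 and a median of 0.20, or 0.12 without *bArKO* replicate 3, 0.08 without Control replicate 2 and 0.93 without Control replicate 1. Choroid plexus genes had 15 of 18 above 0 and a median of 0.32, which was 0.72 without *bArKO* replicate 3 and -0.39 without *bArKO* replicate 2 and Control replicate 3. Ependyma genes had 9 of 10 below 0 and a median of -0.14, which was 0.09 without *bArKO* replicate 3 and -0.31 without the pair.

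**Figure D4:**
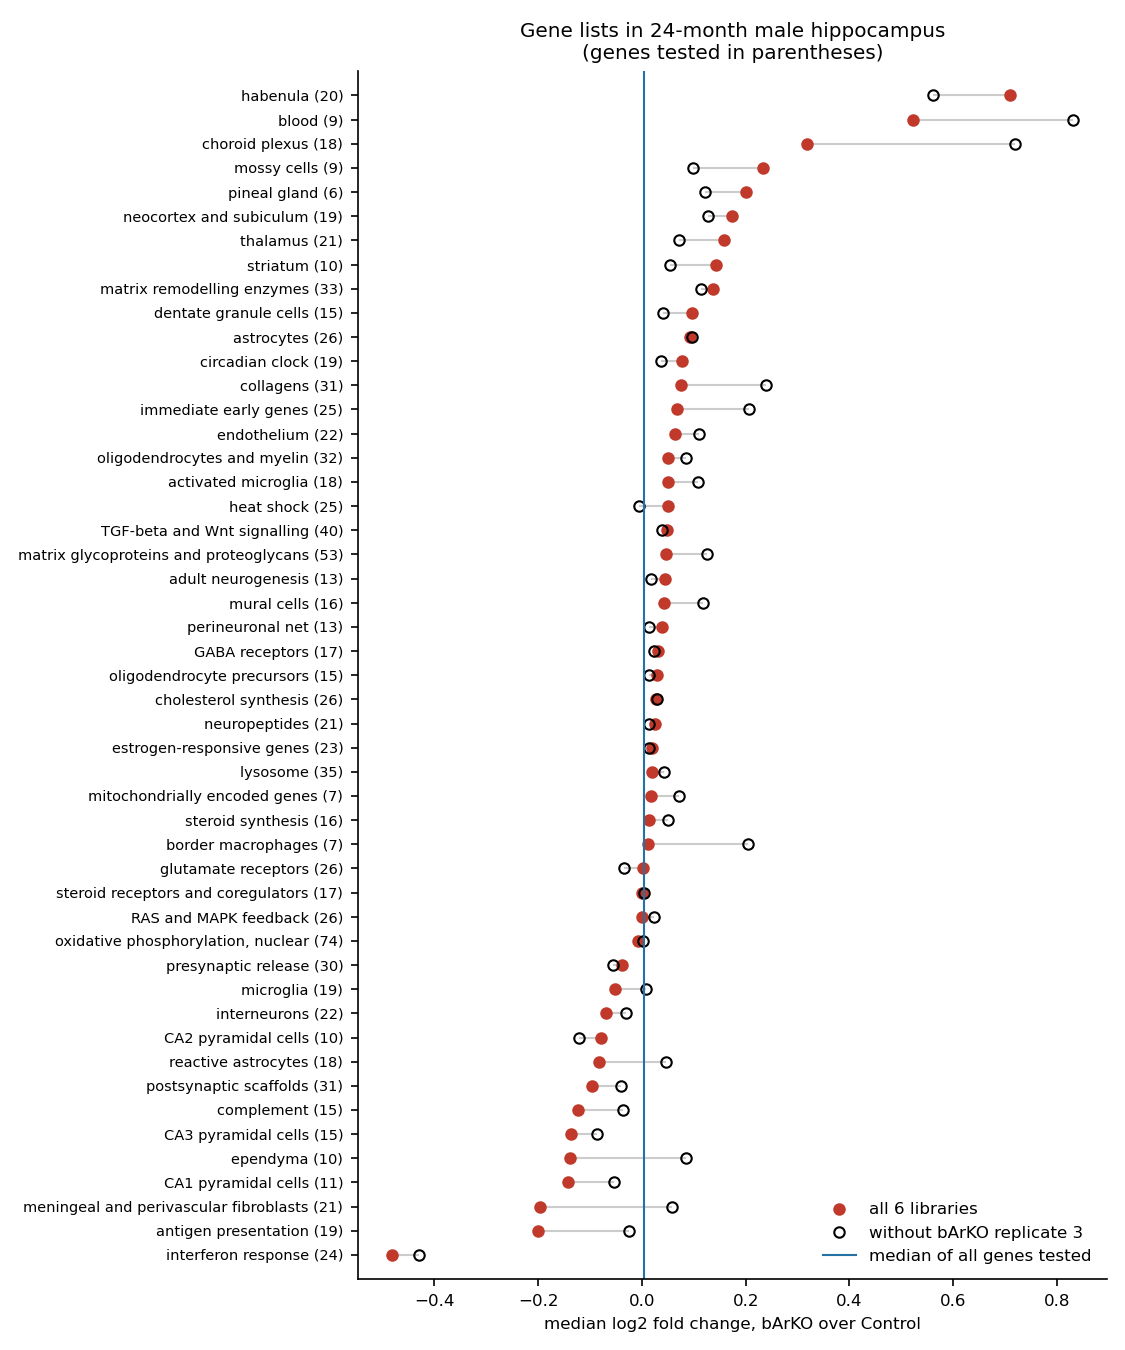
Median log2 fold change of *bArKO* over Control for the genes tested in each of 49 lists. Values are with all 6 libraries (filled) and without *bArKO* replicate 3 (open), and a line gives the median of all genes tested. For habenula the median is over all 20 genes tested, several of them with few counts in Control. Interferon response is lowest at -0.48 and is at -0.43 without that library, while blood is at 0.52 and 0.83 and choroid plexus at 0.32 and 0.72. Over the 20 interferon response genes with at least 10 counts in every 24-month library, the medians are -0.33 and -0.21.

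Metabolic and stress lists were near 0. Nuclear genes of oxidative phosphorylation had 32 of 74 above 0 and a median of -0.01. Of 13 mitochondrially encoded genes 7 were tested, with a median of 0.02, and the other 6 had 0 counts in these libraries. Cholesterol synthesis had 16 of 26 genes above 0, a median of 0.03 and 2 higher at an unadjusted p under 0.05, both in the late steps of the pathway. With any single library left out, that count was 0 or 1, and the p of *Lss* was above 0.05 each time. *Lss*, which cyclises squalene epoxide to lanosterol, was at 40.5, 36.05 and 36.4 CPM in *bArKO* and 31.5, 32.7 and 32.4 CPM in Control, with no overlap (log2 fold change 0.23). *Tm7sf2*, a sterol reductase, was at 12.5, 10.3 and 11.9 CPM and 7.55, 9.74 and 10.4 CPM, with slight overlap (0.33, or 0.20 without Control replicate 1). Lysosomal genes had 21 of 35 above 0 and a median of 0.02. *Lipa*, the lysosomal acid lipase that frees cholesterol from its esters, was at 23.5, 24.4 and 26.6 CPM and 21.4, 19.9 and 21.7 CPM, with no overlap (0.24). Heat shock genes had 17 of 25 above 0 and a median of 0.05, and *Hspe1*, the mitochondrial cochaperonin, was at 13.7 to 16.6 CPM in *bArKO* and 17.1 to 18.2 CPM in Control. Circadian clock genes had 13 of 19 above 0 and a median of 0.08.

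Immediate early genes had 14 of 25 above 0 and a median of 0.07. That median was 0.21 without *bArKO* replicate 3, -0.04 without *bArKO* replicate 1 and -0.01 without Control replicate 1. *Sik1*, a kinase induced by cyclic AMP, was higher at an unadjusted p under 0.05, at 19.4, 15.3 and 10.9 CPM in *bArKO* and 11.2, 12.1 and 9.79 CPM in Control, with overlap. Its p was above 0.05 without *bArKO* replicate 1, with a fold of 0.26, and without Control replicate 3. RAS and MAPK feedback genes had 13 of 26 above 0. *Rreb1*, a zinc finger factor that binds RAS-responsive elements, was at 54.3, 47.9 and 53.5 CPM in *bArKO* and 30.1, 38.0 and 36.5 CPM in Control. The groups were well apart, with a log2 fold change of 0.57 (95% confidence interval -0.12 to 1.27). DESeq2 on the 6 libraries alone, over genes with at least 10 counts in total, called *Irx2* and *Rreb1* as its 2 DEGs, and edgeR on every gene with at least 1 count called 46, these 2 among them. For *Irx2* such a call rests on Control values under the floor.

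Of the remaining genes with the smallest p and no overlap, 3 were higher in *bArKO*. *Zfp1008*, a zinc finger gene, was at 4.99, 4.72 and 5.42 CPM in *bArKO* and 3.12, 3.27 and 3.07 CPM in Control (log2 fold change 0.67), with libraries of a group close together. *Zfp692*, another zinc finger gene, was at 12.7, 12.1 and 13.1 CPM and 6.70, 10.9 and 6.43 CPM (0.65), with Control replicate 2 nearest to *bArKO*. *Emp2*, a tetraspan membrane protein, was at 35.9, 35.2 and 37.8 CPM and 30.2, 29.3 and 30.8 CPM (0.27), a small but even difference.

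The lower ones were of mixed function. *Arhgef3*, an exchange factor for RhoA, was at 85.3, 85.5 and 92.2 CPM in *bArKO* and 107, 102 and 114 CPM in Control (log2 fold change -0.30). *Cmss1* was at 5.62, 5.34 and 5.99 CPM and 8.57, 7.83 and 7.62 CPM (-0.51). *H2ac6*, a replication-dependent histone gene whose mRNA lacks a poly(A) tail in dividing cells, was at 1.34, 1.49 and 0.691 CPM and 2.34, 2.88 and 1.88 CPM (-0.98). A gap between the groups was required for naming these genes. *Pcdhga11*, of the clustered protocadherins that share their last exons, was at 13.8, 10.1 and 11.1 CPM and 17.1, 14.5 and 14.7 CPM (-0.41). *Fam120aos*, which lies opposite *Fam120a*, was at 19.8, 17.5 and 15.3 CPM and 25.5, 22.6 and 21.5 CPM (-0.40), and *Tmem179b* at 2.94, 3.94 and 3.23 CPM and 4.21, 5.67 and 5.14 CPM (-0.57). The share of *Fam120a* reads in the *Fam120aos* values was not tested.

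Folds at 24 months were also set against those of 6-month males. The interaction of age with genotype had 0 of 15693 genes past an adjusted p of 0.05 in edgeR with Benjamini-Hochberg correction (0%), and DESeq2 also gave 0. At an unadjusted p under 0.05 it took 531 genes (3.38%), with 367 (2.34%) higher at 24 months. Choroid plexus had 12 of 18 genes among these, thalamus 4 of 21 and habenula 2 of the 9 with at least 10 counts, all with the higher fold at 24 months. In 6-month males the choroid plexus list had a median of -3.33, against 0.32 at 24 months. There, *Ttr* was at 60.8, 53.1 and 62.7 CPM in *bArKO* and 439, 28.5 and 6948 CPM in Control, so that 1 library, 6-month Control replicate 3, stood far above the other 5. At 6 months the thalamus list had a median of -0.54 and the 9 habenula genes of -0.03. Thalamic genes were high there in 6-month Control replicate 1, with *Tcf7l2* at 33.5 CPM against 5.49 to 10.2 CPM in the other 5 libraries, *Patj* at 21.7 against 6.23 to 8.75 CPM and *Slc17a6* at 57.7 against 8.37 to 20.3 CPM. Without 6-month Control replicate 3 the interaction took 0 choroid plexus, 4 thalamus and 2 of the 9 habenula genes with the higher fold at 24 months (1.43% of all genes then), and the 6-month medians were -0.95, -0.56 and -0.02. Without 6-month Control replicate 1 it took 15, 1 and 1 (3.2%), with 6-month medians of -3.74, 0.13 and 0.03. Oligodendrocyte and myelin genes had a median of -0.37 at 6 months against 0.05 at 24 months, with 3 of 32 genes in the interaction, or 8 without 6-month Control replicate 1 and 0 without 6-month Control replicate 3. Values of both ages come from separate mice, and the part of dissection in these interactions was not tested.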

How the data were processed

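Hippocampal RNA was sequenced by the submitters from TruSeq stranded mRNA libraries on an Illumina HiSeq. The authors deposited raw counts per Ensembl gene for 24 libraries. Their processing notes name FastQC 0.12.0, Trim Galore 0.6.10, cutadapt 4.2, STAR 2.7.9a to GRCm39, HTSeq 2.0.2, DESeq2 1.34.0 and R 4.1.1. The methods state default parameters for tools where none is named, HTSeq included, and the annotation release is not given in the sources used here. From these counts, CPM with TMM factors and log2 fold changes were computed with edgeR 4.0.16 in R 4.3.3. Genes passing filterByExpr were tested with the edgeR quasi-likelihood test in the 12 libraries of 24-month mice, one coefficient per sex and genotype group, with Benjamini-Hochberg correction over all genes tested. Interaction terms compared the genotype effect between sexes in these 12 libraries and between ages of males in all 24. Intervals are 95% confidence intervals of the edgeR log2 fold change.

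The smallest two-sided exact permutation p for 3 against 3 is 0.1, so no single value was tested that way. Library totals of all 24 ranged from 7615391 to 18872054 counts. Alternatives were DESeq2 1.42.0 on 12 or 6 libraries, edgeR on 6 or 24, RLE factors, filters of at least 1 count or of 10 counts in every library, no fold threshold, a replicate block, thinning to the smallest total, each library left out and, chosen after seeing the data, 2 libraries left out together. Both tools were tested on simulated data.

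Genes were named by rule: aromatase, the estrogen receptors and sex genes; *Rreb1*, *Irx2*, *Ccn2*, *Col1a1*, *Dcn*, *Ogn* and *Slc17a6*; the 10 higher and 10 lower with the smallest p, no overlap, a mean of at least 1 CPM and no predicted name; and, of each of 49 gene lists, the member with the most counts and up to 3 with the smallest p. Of 1036 list genes, 8 symbols were not matched: *Ca12*, *Ddx58*, *Nov*, *Rgs15*, *Fcrls*, *Fam183b*, *Pifo* and *Ctgf*. The members and lists were chosen with earlier results of these data known, and a midbrain list was added after values were seen. Lists are described by counts and medians with no test.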

Additional observations from a re-analysis of the deposited data

Results flagged for a closer look

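*Isg15* differed between the sexes in the direction of its genotype difference: every *bArKO* male was below every Control male at 24 months, and every *bArKO* female was above every Control female. In males the highest *bArKO* value almost reached the lowest Control value, and levels were low in both sexes. Log2 fold changes were -0.97 in males and 0.55 in females, a difference of -1.52. After Benjamini-Hochberg correction over all genes in edgeR the interaction had an adjusted p of 1.00, and the cause was not tested.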

How the results depend on the processing

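With 3 libraries a side, the confidence intervals in the report set the precision of each fold. The count of 0 DEGs held under DESeq2 on 12 or 6 libraries, edgeR on 6 or 24, RLE factors, no fold threshold, thinning, at least 10 counts in every library and each library left out, with 208 to 499 genes at an unadjusted p under 0.05. It was 2 when DESeq2 took the 6 libraries and genes of 10 counts or more in total, and 46 when edgeR took every gene with at least 1 count. Of these 46, 36 were among the genes tested with the filter. With that filter dropped, the interaction with sex gave 40 and that with age 123. Leaving out a library, the interaction with sex gave 0 to 2, with 2 without 24-month female Control replicate 2. The cause was not tested.

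With the replicate number as a block there were 0 DEGs and 263 genes at an unadjusted p under 0.05, and *Ttr* turned from 0.52 to -0.87. Deviations of libraries with the same number correlated across 15412 genes at 0.244, -0.145 and -0.0346. They were not alike, and whether the numbers pair mice was not settled by this. Genes are not independent replicates.

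Leaving out each library in turn, the log2 fold change ranged from -0.95 to 0.18 for *Xist*, -0.84 to 1.66 for *Ccn2*, -0.57 to 1.03 for *Col1a1*, -0.66 to 0.71 for *Dcn*, -0.94 to 0.54 for *Ogn*, -1.51 to 1.00 for *Ptgds*, -0.011 to 0.39 for *Sparc*, -0.25 to 0.028 for *Ifi27*, -0.073 to 0.21 for *Gfap*, -0.0048 to 0.075 for *Pcdh10*, -2.36 to 2.13 for *Ttr* and -1.87 to 8.24 for *Pax7*. *Pax7* was under the floor in 5 of the 6 libraries, so that its fitted folds are no measure of size. Without *bArKO* replicate 2 and Control replicate 3 together, a setting chosen after seeing the data, *Dcn* was at -0.042, *Ptgds* at 0.12 and *Ttr* at -0.74, with 0 DEGs. The median of the interferon response list was -0.51 to -0.32 with each library left out and -0.33 with at least 10 counts in every library, and below 0 in every setting run. The cause was not tested.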
